A study of Mus musculus with 8 samples.

Results

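The clustered histone genes, which encode the replication-dependent histones H1, H2A, H2B, H3 and H4 and 3 testis forms, were described in cultured spermatogonial stem cells under retinoic acid and nutrient restriction. They were chosen by name alone, as the rows of the count table whose gene name starts with Hist1h, Hist2h, Hist3h or Hist4h, which gave 70 genes of 55421. The 70 comprise 6 genes for H1, 20 for H2A, 19 for H2B, 12 for H3 and 13 for H4, and 56 of them lie on mouse chromosome 13, 10 on chromosome 3, 3 on chromosome 11 and 1 on chromosome 6. The annotation types 3 of the 70, Hist1h2aj, Hist1h2al and Hist3h2bb-ps, as pseudogenes. Expression could be tested for 40 of the 70, against 20477 genes in the whole table, after removal of genes with too few reads. The remaining 30 had a mean of at most 6.13 counts per library.

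SSC culture was derived from the testes of 6-day-old C57BL/6XDBA/2 hybrid pups and was grown, in all groups, with bFGF and GDNF on mouse embryonic fibroblast (MEF) feeders, which come from outbred CF1 mice and are mitotically arrested by irradiation. Vehicle cultures (Veh) were kept in unchanged complete medium, and RA cultures were given 100 nM retinoic acid, the vitamin A derivative that drives spermatogonial differentiation. Nutrient restriction (NR) replaced 90% of the medium by Earle's balanced salt solution and left 10% complete medium, and NRRA joined that restriction with 100 nM retinoic acid. The bFGF, GDNF and serum of the complete medium were diluted with it in NR and NRRA. Effects of that dilution and of fewer nutrients cannot be told apart here. Each treatment lasted 2 days, and each of the 4 groups had 2 libraries, described in the study's reporting form as independent biological replicates. The design asks what retinoic acid and nutrient restriction do alone and what they do together.

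Nucleosomes are built from the core histones H2A, H2B, H3 and H4, and the linker histone H1 binds the DNA between them. Most of these proteins come from intronless gene clusters that are switched on in S phase, and their messages normally end at a conserved stem-loop instead of a poly(A) tail, bound there by SLBP and cut with the help of the U7 snRNP. Some clustered genes also make polyadenylated messages, from poly(A) sites past the stem-loop, in differentiated or non-dividing cells. In the testis, Hist1h1t (H1t) and the TH2A and TH2B genes Hist1h2aa and Hist1h2ba encode forms that replace the standard histones in male germ cells.

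RNA was captured with oligo dT beads, which bind poly(A) tails, so a message that ends at its stem-loop is not expected to be captured and the values below do not measure the whole histone message. Stem-loops were therefore looked for behind the stop codon, as a stem of 6 base pairs around a loop of 4 bases. The stem had to start with GG and end with CC, G-T pairs were allowed, and the loop had to start with TT. Stem-loops of this form were found in 44 of the 70 genes (62.9%). In a wider search, over whole transcripts, 2.38% of 22028 protein-coding genes held one, so the 2 shares are not like measures. In the 44 genes they began between 22 and 59 bases after the stop codon, with a median of 32. The stem-loops had 6 different sequences. The most common was shared by 26 genes of H1, H2A, H2B and H3, among them Hist1h1c, the member with the highest counts. A second was found in 7 genes, all for H4, and another in 6, among them Hist1h1t. The following 26-base stretches from GENCODE M21 transcripts (GRCm38) show these kinds, with the stem and loop in capitals and 5 bases on either side.
Hist1h1c, stem-loop at chr13:23739512-23739527, plus strand: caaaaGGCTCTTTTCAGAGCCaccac
Hist1h1t, chr13:23696525-23696540, plus strand: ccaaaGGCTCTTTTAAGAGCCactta
Hist1h4n, chr13:21831798-21831813, minus strand: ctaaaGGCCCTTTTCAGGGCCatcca
Hist1h4i, chr13:22040966-22040981, minus strand: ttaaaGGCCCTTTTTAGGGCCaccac
Hist1h4b, chr13:23757366-23757381, plus strand: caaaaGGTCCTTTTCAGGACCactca

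The annotated transcripts differed in how far they run past the stem-loop. In 22 genes the annotation continued more than 100 bases beyond it, by 840 bases in Hist1h1c and 4884 in Hist1h1d. In 22 others it stopped within 100 bases, after 31 bases in Hist1h4n, and in 26 no stem-loop was found in the annotated transcript. Among the 26 are genes whose annotation ends at the stop codon, such as Hist1h2ba, Hist1h1b and Hist1h4k. There a stem-loop could not be found, so this class describes the annotation and not the gene. Of the genes with the long end, 18 of 22 could be tested, with a median over all 22 of 45.1 counts per library. Of those with the short end, 12 of 22 could be tested (median 7.63 counts), and of those without a stem-loop 10 of 26 (median 3.94 counts). Longer transcripts collect more reads. Per kilobase the medians were 1.05 CPM for the long end, 0.568 for the short end and 0.380 for no stem-loop, where CPM is the usual depth-scaled count, with library totals scaled by TMM. The classes also differ in how much read-length sequence they share with other genes, described below, with medians of 14.4%, 54.4% and 60.6%. Whether the end or the shared sequence has a part in this order was not tested.

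Library totals ran from 19261333 to 30023585 counts, so 1 CPM stood for 19.2 to 31.1 reads. The 70 genes together took 3845 to 7171 reads, or 0.0191% to 0.0263% of all reads. Between the 2 libraries of a group, counts varied beyond sampling noise (chi-square per gene 1.58 to 3.93 over the 4 groups). The germ cell markers were detected in all 8 libraries, with Ddx4 at 131 to 191 CPM and Dazl at 299 to 467 CPM. Fibroblast RNA was plentiful too, since 6 fibroblast markers (Col1a1, Col1a2, Col3a1, Fn1, Lum and Dcn) summed to 17481 to 17649 CPM in Veh, 14405 to 15512 under RA, 28190 to 29506 under NR and 22716 to 23492 under NRRA. All 6 were above 0 in every library. In such mixed cultures a lower value can mean fewer cells of a kind or less RNA per cell, which cannot be told apart.

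Expression was concentrated in few genes. The 15 members of highest level held 89.8% of all reads of the group, and 2 of them, Hist1h1c and Hist1h2bc, held 56.1%. A mean of at least 100 counts was reached by 8 of the 70, a mean under 10 counts was found for 36, and Hist2h2aa1 and Hist2h3c1 had no count in any library. Both of the latter share all of their sequence with other genes at the length of a read. Per kilobase, Hist1h2al (60.9 CPM per kilobase), Hist1h2bc (52.8) and Hist1h1c (42.8) led, followed by the H4 genes Hist1h4h (13.6), Hist1h4i (12.9) and Hist1h4n (10.6).

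**Figure D1:**
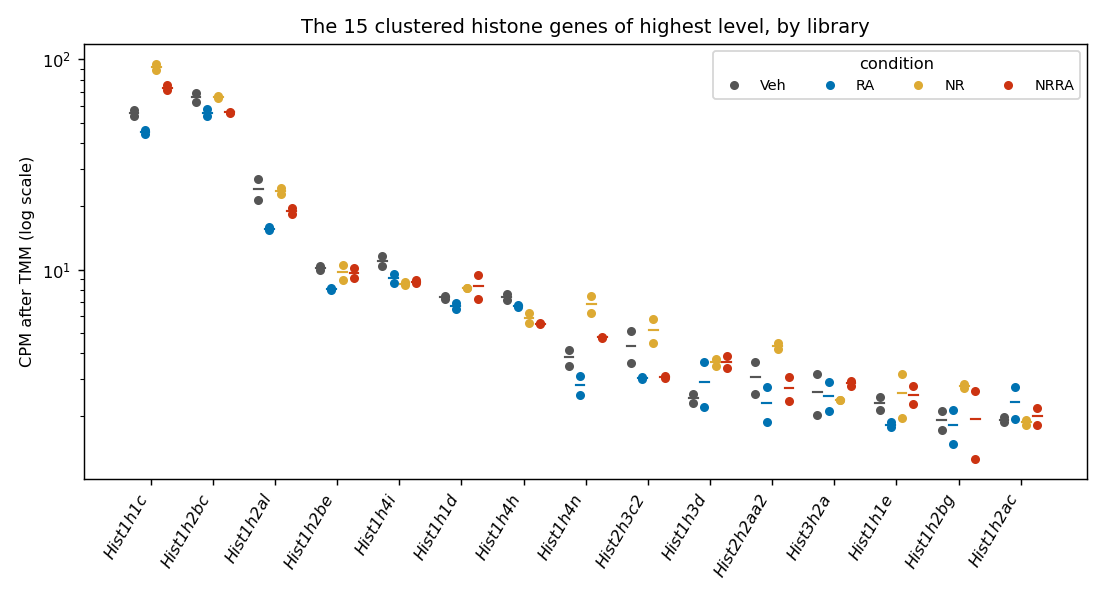
Level of the 15 clustered histone genes with the highest mean, in CPM after TMM scaling on a log axis, with 1 point per library and a dash at the mean of the 2 libraries of each group. Hist1h1c sat between 89.4 and 95.4 CPM in NR and between 44.0 and 46.2 in RA, while most other genes were below 12 CPM in all groups.

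Near-identical copies limit what can be read from single genes. As a measure of this, the share of windows of 1 sequencing read's length in each gene that also occur in the transcripts of another gene was computed. The median share was 30.7% in the 40 tested members and 66.2% in the 30 others, and it exceeded 50% in 11 and 18 of them, respectively. It was 5.0% in Hist1h1c, 25.3% in Hist1h2bc and 80.6% in Hist1h4n. How multiply mapped reads were handled is not given in the sources used here, so the counts of genes with a high share are uncertain.

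**Figure D2:**
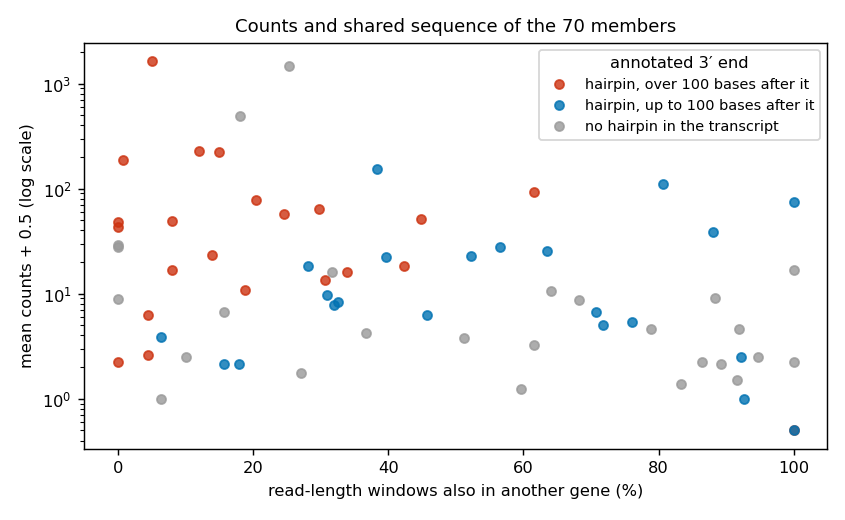
Mean counts per library plus 0.5 (log axis) against the percentage of read-length windows that also occur in another gene, with 1 point for each of the 70 genes and the colour for the annotated end of the transcript. The 5 genes of highest count lie at shares of 25.3% or less, and the share reaches 100% in genes of each kind of end.

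The linker histone gene Hist1h1c (H1.2; ENSMUSG00000036181, chr13:23738808-23740367, plus strand, a single exon) changed in all 5 pairwise comparisons. It stood at 57.8 and 54.0 CPM in Veh, 46.2 and 44.0 under RA, 89.4 and 95.4 under NR, and 71.3 and 75.5 under NRRA. The ranges of the 4 groups did not overlap, with NR highest, then NRRA, then Veh, and RA lowest. Relative to Veh, Hist1h1c rose in NR by 0.73 on the log2 scale (SE 0.0581, edgeR adjusted p = 7.76e-11) and in NRRA by 0.39 (SE 0.0581, edgeR adjusted p = 1.89e-06). It fell in RA by 0.31 on the log2 scale (SE 0.0620, edgeR adjusted p = 0.000178). NRRA was also higher than RA (0.71, SE 0.0583, edgeR adjusted p = 1.23e-10) and lower than NR (-0.33, SE 0.0545, edgeR adjusted p = 1.52e-05). None of these 5 calls was lost under any of 16 alternative settings.

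The summed level of the 6 fibroblast markers stood in the same order of groups as Hist1h1c. Against the mean of Veh, Hist1h1c averaged 0.806 under RA, 1.65 under NR and 1.31 under NRRA, and the summed fibroblast markers averaged 0.852, 1.64 and 1.32. The 18 genes of S phase and replication described below averaged 0.893, 0.806 and 0.870, and the 5 germ cell markers 0.892, 1.14 and 0.828. The fibroblast markers did not all move the same way. In RA vs Veh 0 were higher and 4 lower, in NR vs Veh 5 were higher and 0 lower, and in NRRA vs Veh 4 were higher and 2 lower. The shares of all tested genes higher and lower were 19.8% and 23.4%, 21.7% and 22.2%, and 30.1% and 28.7%, in that order. In NRRA the collagen genes Col1a1 (1.02), Col1a2 (0.98) and Col3a1 (1.41) and Dcn (0.37) rose on the log2 scale, while Fn1 fell by 0.55 and Lum fell by 0.74. The germ cell markers were divided as well, and in NRRA Ddx4 (0.41) and Dazl (0.58) rose while Zbtb16 fell by 2.21, Gfra1 fell by 1.90 and Etv5 fell by 2.68. Whether feeder RNA has a part in the values of Hist1h1c was not tested.

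**Figure D3:**
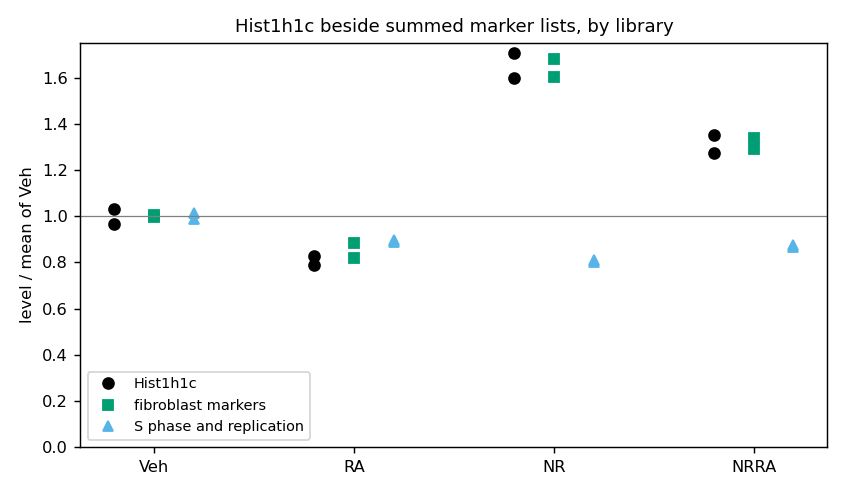
Level of Hist1h1c, of the 6 summed fibroblast markers and of the 18 summed genes of S phase and replication in each library, divided by the mean of the 2 Veh libraries (line at 1). Hist1h1c and the summed fibroblast markers both average 1.6-fold or more in NR, where the S phase genes average 0.806.

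The promoter of Hist1h1c (named H1f2 in RefSeq) holds both a CCAAT box and the AAACACA element known from H1 genes. It is shown, with that of the H4 gene Hist1h4n (H4c18), because both genes rose in NR, and with that of the testis gene Hist1h2ba (H2bc1). Each stretch covers 250 bases before to 50 after the annotated start, 5′ to 3′ on the gene's strand, from RefSeq on GRCm38.p6. Capitals mark 4 motifs on either strand, namely the CCAAT box, the TATAAA box, the octamer core ATTTGCA and the H1 element AAACACA.
Hist1h1c, chr13:23738557-23738856, plus strand: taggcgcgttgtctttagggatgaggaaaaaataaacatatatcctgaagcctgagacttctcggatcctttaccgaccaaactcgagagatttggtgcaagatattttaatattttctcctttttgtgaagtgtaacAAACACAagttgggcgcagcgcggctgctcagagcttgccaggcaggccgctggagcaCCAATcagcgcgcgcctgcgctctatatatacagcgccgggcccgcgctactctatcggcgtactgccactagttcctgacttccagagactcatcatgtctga
Hist1h4n, chr13:21832148-21832447, minus strand: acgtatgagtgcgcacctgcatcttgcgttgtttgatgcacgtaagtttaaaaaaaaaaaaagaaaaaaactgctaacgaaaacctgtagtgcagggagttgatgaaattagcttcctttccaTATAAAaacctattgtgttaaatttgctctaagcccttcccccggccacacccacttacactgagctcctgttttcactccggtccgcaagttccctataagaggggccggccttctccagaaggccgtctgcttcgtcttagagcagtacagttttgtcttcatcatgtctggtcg
Hist1h2ba, chr13:23934107-23934406, minus strand: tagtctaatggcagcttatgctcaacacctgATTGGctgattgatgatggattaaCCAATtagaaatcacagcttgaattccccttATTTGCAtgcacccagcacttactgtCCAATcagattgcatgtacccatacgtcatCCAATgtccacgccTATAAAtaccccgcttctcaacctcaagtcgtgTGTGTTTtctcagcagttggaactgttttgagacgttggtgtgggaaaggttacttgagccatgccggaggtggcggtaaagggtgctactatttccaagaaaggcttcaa

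Promoters were matched for 61 of the 70 genes, and their motifs followed the histone family. CCAAT stood in 52 of the 61 (85.2%, against 37.4% of all 32544 promoters of this length), in every H1, H2A, H2B and H3 promoter matched but in 3 of 12 for H4. TATAAA stood in 57.4% against 13.6% of all promoters. The octamer core ATTTGCA stood in 13 of the 61 (21.3% against 4.04%), which were 7 of 17 H2A and 6 of 16 H2B promoters. AAACACA stood in 5 of 6 H1 promoters and in 9 of 61 in all (14.8% against 7.20%). The windows of Hist1h2ba and Hist1h2aa overlap, since this pair is transcribed in opposite directions from 1 region, and share motifs for that reason. Other H2A and H2B genes lie in such pairs too. The window of Hist1h2bf, for example, reaches past the annotated start of Hist1h2ad. Where both genes of a pair were matched, a motif can be counted for both, so these counts are not of separate sites.

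Of the other H1 genes, Hist1h1d (H1.3) stood at 7.28 and 7.50 CPM in Veh, 6.47 and 6.90 under RA, 8.19 and 8.20 under NR, and 7.22 and 9.47 under NRRA. NRRA passed the test against RA (0.32, SE 0.126, edgeR adjusted p = 0.0453), but the value was 0.10 without NRRA library 2 and 0.50 without NRRA library 1, and the call was lost under 10 of 16 settings. Its value in RA vs Veh was -0.14 (edgeR adjusted p = 0.455), but -0.46 and past the test with the trend over GC content and length removed, and in NRRA vs Veh it was 0.18, but 0.36 and past the test without NRRA library 1. Hist1h1e (H1.4) had log2 fold changes of -0.33 to 0.19 against Veh, none past the test, and shares exon sequence with Hist1h2be. Summed over the 6 H1 genes, the level was 67.1 ± 2.58 CPM in Veh, 55.2 ± 0.898 under RA, 104 ± 5.26 under NR and 86.0 ± 5.10 in NRRA (SD, n = 2 each). Hist1h1c makes up most of each sum.

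Among the H2B genes, Hist1h2bc (ENSMUSG00000018102, chr13:23684199-23692908, plus strand) has a 2-exon transcript with no stem-loop in it. It stood at 62.8 and 69.4 CPM in Veh, 58.0 and 53.6 under RA, 67.1 and 65.8 under NR, and 55.7 and 56.3 under NRRA. Both groups with retinoic acid lay below both groups without it. Relative to Veh, the gene fell in RA by 0.25 on the log2 scale (SE 0.0604, edgeR adjusted p = 0.00147) and in NRRA by 0.24 (SE 0.0591, edgeR adjusted p = 0.00114), and it was lower in NRRA than in NR (-0.25, SE 0.0580, edgeR adjusted p = 0.00110). Both calls against Veh were lost when library totals were used without TMM (-0.15 and -0.12). The RA call was also lost without RA library 2, and its value was -0.16 without Veh library 2. Hist1h2be stood at 10.5 and 9.95 CPM in Veh and 8.16 and 8.01 under RA, at 10.5 and 8.96 under NR and at 10.1 and 9.09 under NRRA. It was lower in RA (-0.34, SE 0.117, edgeR adjusted p = 0.0218). This call was lost under 6 of 16 settings, among them without Veh library 1, RA library 1 or RA library 2.

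The H2A row with the highest level, Hist1h2al (ENSMUSG00000091383, chr13:51202727-51203065, minus strand), is annotated as a processed pseudogene and lies apart from the chromosome 13 clusters. It stood at 26.9 and 21.5 CPM in Veh, 15.4 and 15.9 under RA, 23.0 and 24.4 under NR, and 19.5 and 18.3 under NRRA. RA was lowest and NRRA came next, and neither overlapped Veh or NR, whose ranges overlapped each other. Relative to Veh it fell in RA by 0.63 on the log2 scale (SE 0.0941, edgeR adjusted p = 4.86e-06), which no setting undid, and in NRRA by 0.36 (SE 0.0887, edgeR adjusted p = 0.00106), which was -0.18 and no longer past the test without Veh library 1. NRRA was higher than RA (0.27, SE 0.0922, edgeR adjusted p = 0.0213) and lower than NR (-0.33, SE 0.0866, edgeR adjusted p = 0.00295). The first call was lost under 4 of 16 settings, among them without RA library 1, RA library 2 or NRRA library 1. The second was lost without NR library 2 or NRRA library 2.

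The pseudogene shares 32.2% of its exon with Gm44341 on the opposite strand. Gm44341 had 0.693 to 0.774 counts for each count of Hist1h2al in all 8 libraries, and its log2 fold change was -0.69 in RA and -0.39 in NRRA against Veh, close to those of Hist1h2al. Whether counting used the strand is not given in the sources used here, so reads of this pair cannot be told apart. Hist2h2aa2, an H2A gene of chromosome 3, stood at 3.62 and 2.55 CPM in Veh, 2.75 and 1.87 under RA, 4.48 and 4.18 under NR, and 3.07 and 2.38 under NRRA. It shares 100% of its read-length windows with other genes, so the reads may not all be its own. NRRA was lower than NR (-0.67, SE 0.192, edgeR adjusted p = 0.00593), a call lost under 2 of 16 settings, among them without NRRA library 2. Its value in NR vs Veh was 0.48 (edgeR adjusted p = 0.0591), which passed the test under 9 of 16 settings, with values of 0.48 to 0.77. In RA vs Veh it was -0.46, and -0.67 without Veh library 2 and -0.73 without RA library 1, both past the test. Its exon lies wholly opposite Gm20632, which was lower in NRRA than in NR by a log2 value of -0.70.

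Among the H4 genes, Hist1h4n (ENSMUSG00000069305, chr13:21831767-21832196, minus strand) moved in the same directions as Hist1h1c in the 4 comparisons where it passed the test. It stood at 4.16 and 3.49 CPM in Veh, 3.11 and 2.53 under RA, 7.52 and 6.23 under NR, and 4.79 and 4.75 under NRRA. The groups did not overlap. It rose in NR by 0.83 on the log2 scale (SE 0.159, edgeR adjusted p = 0.000113) and was higher in NRRA than in RA by 0.78 (SE 0.167, edgeR adjusted p = 0.00042), and neither call was lost under any of 16 settings. It was lower in NRRA than in NR (-0.52, SE 0.140, edgeR adjusted p = 0.00387), a call lost under 2 of 16 settings, among them without NR library 1. Its lower level in RA (-0.47, SE 0.187, edgeR adjusted p = 0.0467) was lost under 12 of 16 settings and was -0.31 without Veh library 1 and -0.30 without RA library 2. Its value in NRRA vs Veh was 0.31 (edgeR adjusted p = 0.101), but 0.43 and past the test with library totals and 0.48 and past it with the trend over GC content and length removed. Its transcript is short and shares 80.6% of its windows with Hist1h4m and Hist1h4i, so the reads may not all be its own.

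Other H4 genes went down under restriction. Hist1h4i stood at 10.4 and 11.6 CPM in Veh, 8.61 and 9.54 under RA, 8.43 and 8.73 under NR, and 8.61 and 8.93 under NRRA, so every treated library lay below both Veh libraries. It was lower than Veh in NR (-0.35, SE 0.112, edgeR adjusted p = 0.0121) and in NRRA (-0.32, SE 0.107, edgeR adjusted p = 0.0118). The NR call was lost under 4 of 16 settings, among them without Veh library 2, NR library 1 or NR library 2. The NRRA call was lost under 6, among them without Veh library 2 or NRRA library 1. With DESeq2, 0 members were lower in NR vs Veh at an adjusted p under 0.05. Hist1h4h stood at 7.63 and 7.19 CPM in Veh, 6.78 and 6.66 under RA, 5.59 and 6.19 under NR, and 5.57 and 5.49 under NRRA, with both restricted groups below Veh and RA. It was lower than Veh in NRRA (-0.42, SE 0.126, edgeR adjusted p = 0.00553), a call lost with the trend over GC content and length removed (-0.26). The difference in NR (-0.33, SE 0.130, edgeR adjusted p = 0.0440) was lost under 12 of 16 settings, including the removal of either Veh library, either NR library or either NRRA library. Hist1h4d, named after its values were seen, went up instead, from 1.44 and 1.46 CPM in Veh and 1.58 and 1.66 in RA to 2.36 and 2.32 under NR and 1.97 and 2.57 under NRRA. It was higher than Veh in NR (0.69, SE 0.244, edgeR adjusted p = 0.0235) and in NRRA (0.65, SE 0.236, edgeR adjusted p = 0.0198). The NR call was lost under 5 of 16 settings, among them without any 1 of the Veh or NR libraries. The NRRA call was lost under 4, among them without either Veh library or NRRA library 2 (0.44).

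From H3, 2 genes were among the 15 members of highest level. Hist2h3c2 stood at 5.10 and 3.60 CPM in Veh, 3.01 and 3.09 under RA, 5.83 and 4.48 under NR, and 3.04 and 3.11 under NRRA. It shares 61.5% of its windows with other genes, among them Hist2h3c1, so the reads may not all be its own. Both groups with retinoic acid lay below both groups without it, as in Hist1h2bc. It was lower in NRRA than in NR (-0.73, SE 0.172, edgeR adjusted p = 0.00115), a call that no setting undid. Against Veh it was lower in RA (-0.51, SE 0.192, edgeR adjusted p = 0.0320) and in NRRA (-0.50, SE 0.184, edgeR adjusted p = 0.0213). Each of these 2 calls was lost under 7 of 16 settings. Without Veh library 1 the values were -0.21 and -0.22 and no longer past the test. Leaving out either library of the treated group also ended each call. Hist1h3d stood at 2.33 and 2.55 CPM in Veh, 3.62 and 2.22 under RA, 3.76 and 3.49 under NR, and 3.86 and 3.40 under NRRA. It was higher than Veh in NR (0.57, SE 0.216, edgeR adjusted p = 0.0355) and in NRRA (0.57, SE 0.209, edgeR adjusted p = 0.0212). The NR call was lost under 5 of 16 settings, among them without any 1 of the Veh or NR libraries. The NRRA call was lost under 3, among them without Veh library 1 or NRRA library 1. Hist3h2a, Hist1h2bg and Hist1h2ac, of the H2A and H2B families, complete the 15 and passed no test in the fit of all libraries. Hist1h2bg was at -0.54 in NRRA vs NR (edgeR adjusted p = 0.0912), but passed the test without the filter on low counts and, at -1.15, without NRRA library 1. Hist1h3d was at 0.36 in NRRA vs RA, and at 0.71 and past the test without RA library 1.

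**Figure D4:**
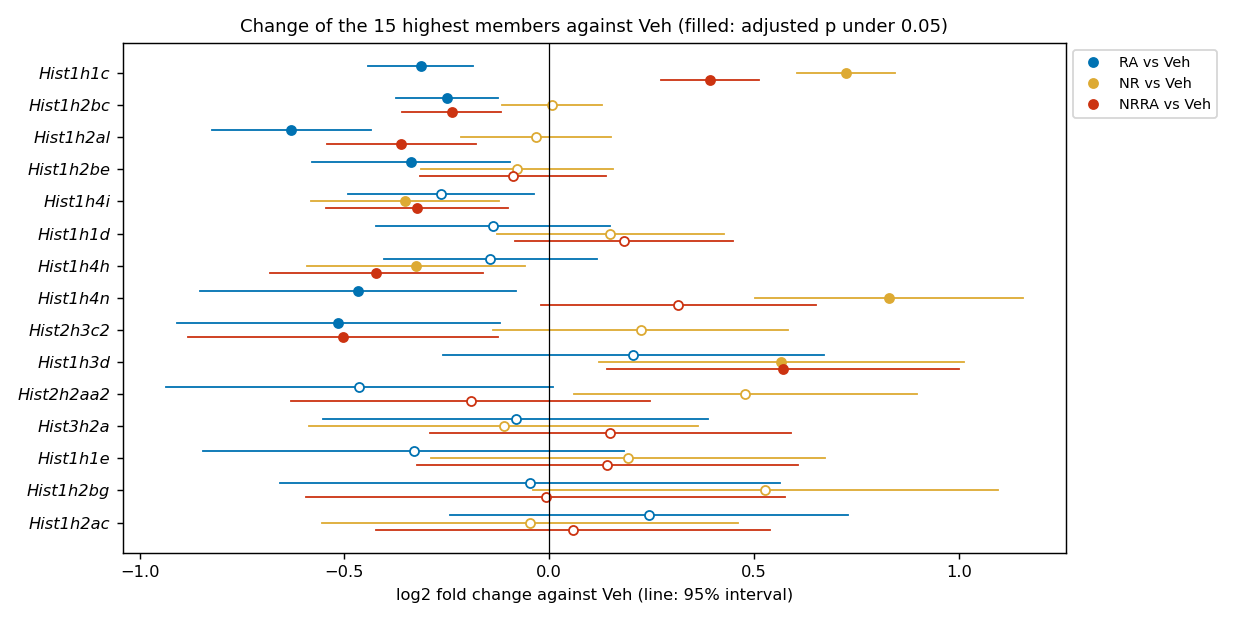
Log2 fold change against Veh of the 15 members of highest level, from edgeR, with 95% intervals, filled where the adjusted p is under 0.05. Hist1h1c is the gene with RA below 0 and both NR (0.73) and NRRA (0.39) above 0 with filled points, and Hist1h2bc has filled points for RA and NRRA at -0.25 and -0.24.

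The testis forms were at or near the detection limit in every group. Hist1h1t had 2 and 2 counts in Veh, 3 and 1 under RA, 0 and 2 under NR, and 2 and 2 under NRRA. Hist1h2aa had 1 and 0 counts in Veh, 3 and 4 under RA, 2 and 2 under NR, and 4 and 0 under NRRA. Hist1h2ba had 0 and 1 counts in Veh, 1 and 3 under RA, 2 and 2 under NR, and 1 and 0 under NRRA. Of totals over the 8 libraries of 14, 16 and 10 counts, no group stood apart, and no fold is given. A count of 0 allows up to 3 counts, or 0.0963 to 0.156 CPM in these libraries, by counting error alone, so a difference among the groups was not detectable at this depth. Of the 8 markers of spermatocytes and spermatids, Piwil1, Ldhc and Tnp1 could be tested, and Acr, Acrv1, Tnp2 and Prm2 were at 0 in at least 1 library. The 8 summed to 12.5 to 15.6 CPM over all libraries, and most of this was Piwil1, at 9.26 to 12.8 CPM. Piwil1 averaged 9.75 CPM in Veh, 12.1 under RA, 9.38 under NR and 11.9 under NRRA. In RA vs Veh and in NRRA vs Veh 1 of the tested markers was higher at an adjusted p under 0.05 and 0 were lower. Of all tested genes 19.8% and 30.1% were higher and 23.4% and 28.7% lower.

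Taking the 40 tested members together, few passed the test in any comparison, and their shares lay below those of all tested genes. In RA vs Veh, 0 were higher and 6 lower at an adjusted p under 0.05, against 19.8% and 23.4% of all genes tested. In NR vs Veh, 6 were higher and 3 lower, against 21.7% and 22.2%. In NRRA vs Veh, 4 were higher and 6 lower, against 30.1% and 28.7%. In NRRA vs RA, 5 were higher and 1 lower (20.9% and 19.4%), and in NRRA vs NR, 0 were higher and 6 lower (21.3% and 22.1%). For the counts of 0 higher in RA vs Veh and in NRRA vs NR, the number at an unadjusted p under 0.05 was also 0, as was the number past the threshold with DESeq2. Of the 6 members past the test in RA vs Veh, 3 were left without Veh library 1 and 2 without RA library 2, and of the 9 in NR vs Veh, 4 and 5 without Veh library 1 and 2 and 3 without either NR library. The 10 in NRRA vs Veh became 4 without Veh library 1, and the 6 in NRRA vs RA became 3 without RA library 2 or NRRA library 2. Where 1 library was left out, the 6 in NRRA vs NR became 4 to 7. The other 25 tested members had mean counts of 7.38 to 47.6 per library, a depth at which small changes do not reach the threshold. The comparisons share libraries and are not independent of each other. The median log2 fold change of the members against Veh was -0.12 in RA, -0.06 in NR and -0.05 under NRRA, beside -0.02, 0.01 and 0.03 over all genes tested.

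With a fold of at least 2 added to the threshold, 3 members were called, each in 1 comparison, and all are named after their values were seen because their counts are low. No member was called in RA vs Veh, NRRA vs Veh or NRRA vs NR, where 4.74%, 9.91% and 4.56% of all tested genes were called higher and 2.75%, 6.02% and 4.14% lower, and none was called higher in NRRA vs RA (4.61% of all tested genes). Hist2h2bb, an H2B gene of chromosome 3, had 8 and 9 counts in Veh, 7 and 15 under RA, 22 and 23 under NR, and 20 and 25 under NRRA. It was called higher in NR vs Veh (1.14, SE 0.409, edgeR adjusted p = 0.0256), where 5.33% of all tested genes were called higher. All of its sequence is shared with other genes, among them Gm42743 on the same strand, which was higher in NR by 0.80. Hist1h3a had 13 and 7 counts in Veh and 4 and 3 under NR, with 10 and 3 under RA and 7 and 12 under NRRA. It was called lower in NR vs Veh (-1.73, SE 0.688, edgeR adjusted p = 0.0431), where 2.96% of all tested genes were called lower. Hist1h3c had 21 and 35 counts in RA and 14 and 13 under NRRA, with 24 and 11 in Veh and 11 and 13 in NR. It was called lower in NRRA vs RA (-1.33, SE 0.370, edgeR adjusted p = 0.00514), where 3.68% of all tested genes were called lower. DESeq2 called 0 members in each of these comparisons. The call of Hist2h2bb was lost without any 1 of the Veh or NR libraries, that of Hist1h3a under 9 of 15 settings, among them without Veh library 1, either NR library or either NRRA library, and that of Hist1h3c without RA library 2 or NRRA library 2.

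The remaining members past the test were Hist1h2ab and Hist2h4, likewise named after their values were seen. Hist1h2ab had 9 and 15 counts in Veh, 17 and 30 under RA, 27 and 28 under NR, and 27 and 27 under NRRA. It was higher in NR than in Veh (0.93, SE 0.364, edgeR adjusted p = 0.0395). This call was lost under 4 of 16 settings, among them without Veh library 1 (0.60), NR library 1 or NR library 2. Hist2h4 had 21 and 32 counts in Veh, 34 and 33 under RA, 50 and 40 under NR, and 57 and 74 under NRRA. It was higher in NRRA than in Veh (0.71, SE 0.280, edgeR adjusted p = 0.0311), with a value of 1.08 without Veh library 2. This call was lost under 3 of 16 settings, among them without Veh library 1 (0.41) or NRRA library 2. Hist2h4 was also higher in NRRA than in RA (0.67, SE 0.265, edgeR adjusted p = 0.0462). This call was lost under 6 of 16 settings, among them without RA library 2 (0.35), NRRA library 1 or NRRA library 2. Hist1h3c was in addition lower in NRRA than in Veh (-0.95, SE 0.407, edgeR adjusted p = 0.0476), a call lost under 13 of 16 settings, with a value of -0.32 without Veh library 1. Some differences passed the test only when a library was left out, namely Hist1h4h in NRRA vs RA (-0.30 without either Veh library), Hist1h4d in NRRA vs RA (0.66 without NRRA library 1), Hist1h3a in RA vs Veh (-2.23 without RA library 1) and Hist1h3c in NR vs Veh (-1.20 without Veh library 2). Hist2h2bb in NRRA vs Veh was at 0.81, and at 0.96 and past the test with the trend over GC content and length removed. In all, 17 of the 40 tested members (42.5%) passed the test in at least 1 pairwise comparison, against 75.6% of all tested genes.

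No member had a response to retinoic acid that differed with nutrient restriction at an adjusted p under 0.05, where 6.37% of all tested genes were higher and 6.58% lower in this interaction of the 2 treatments (0.786% and 1.46% with a fold of at least 2). At an unadjusted p under 0.05 there were 3 members with edgeR and 0 with DESeq2. The smallest adjusted p was that of Hist1h2al, whose interaction was 0.30 on the log2 scale (95% interval 0.04 to 0.56, edgeR adjusted p = 0.133) and passed the test without Veh library 2 (0.42). For Hist1h1c the interaction was -0.02, with a 95% interval of -0.19 to 0.15, and for Hist1h2bc it was 0.00, with a 95% interval of -0.17 to 0.18.

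The sum over all 70 genes was 228 ± 1.94 CPM in Veh, 190 ± 8.12 under RA, 268 ± 2.42 under NR and 227 ± 3.90 in NRRA (SD, n = 2 each). This gave 0.835 times Veh in RA, 1.17 under NR and 0.998 under NRRA. Without Hist1h1c the ratios were 0.844, 1.02 and 0.896, so the higher sum in NR rested on that gene. By family, RA was below Veh for H2A (26.8 ± 1.55 against 35.8 ± 3.13 CPM), H2B (71.5 ± 4.06 against 83.6 ± 3.94) and H4 (25.7 ± 0.252 against 29.9 ± 0.714), with no overlap of libraries (SD, n = 2 each). The pseudogene Hist1h2al averaged 15.7 CPM in RA against 24.2 in Veh, and Hist1h2bc 55.8 against 66.1. Most of the lower H2A sum came from the former, and most of the lower H2B sum from the latter. For H3 the ranges of Veh, RA and NR overlapped, at 11.5 ± 0.879, 11.1 ± 1.36 and 12.3 ± 1.33 CPM (SD, n = 2 each). In NR the sums of H2A, H2B and H4 were 1.01 times those of Veh. Genes with the long end past the stem-loop summed to 1.35 times Veh in NR and 1.16 times in NRRA, but to 1.03 and 0.988 times without Hist1h1c. Those with the short end summed to 1.13 and 0.956 times, and those with no stem-loop in the annotated transcript to 0.985 and 0.833 times. Hist1h2bc and Hist1h2al belong to the last class. No test was made of the sums.

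**Figure D5:**
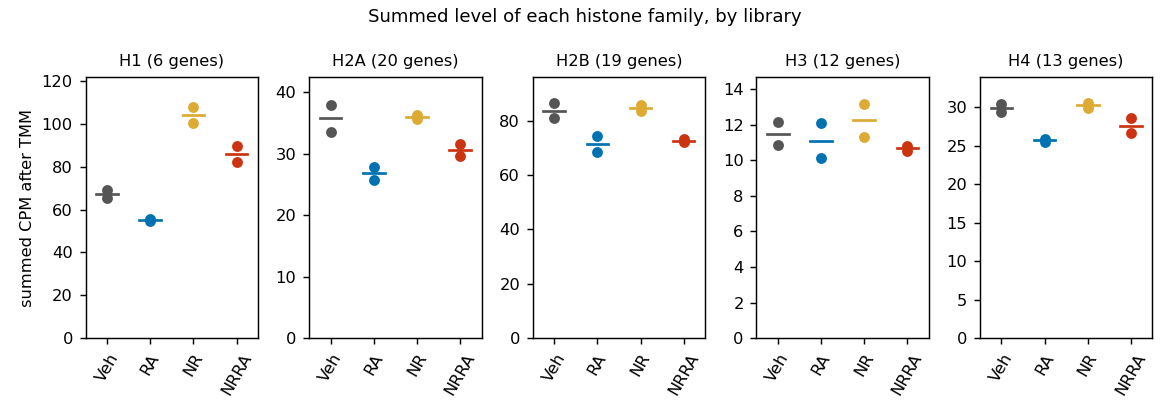
Summed CPM of all genes of each histone family, with 1 point per library and a line at the mean of each group, on axes that start at 0. H1 averages 104 under NR and 55.2 in RA, whereas the 4 core families lie within 1.07 times Veh in NR.

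The factors that make and process histone messages showed changes in both directions. Of 11 listed genes, 3 were higher and 2 lower in RA vs Veh, 2 higher and 5 lower in NR vs Veh, and 4 higher and 3 lower in NRRA vs Veh, with medians of 0.10, -0.13 and 0.01. The shares of all tested genes past the test, which stand beside these and the lists below, were 19.8% higher and 23.4% lower for RA vs Veh, 21.7% and 22.2% for NR vs Veh, and 30.1% and 28.7% for NRRA vs Veh. Casp8ap2 (FLASH), a part of the histone locus body needed for the cut at the stem-loop, stood at 53.2 and 51.0 CPM in Veh, 74.1 and 86.4 under RA, 74.1 and 69.0 under NR, and 102 and 91.8 under NRRA. It rose in each treatment, by 0.63 under RA, 0.46 under NR and 0.90 in NRRA on the log2 scale, where the SE was 0.0679 (edgeR adjusted p = 1.26e-11). Npat, the coactivator of clustered histone genes, stood at 63.3 and 70.4 CPM in Veh and at 89.4 and 89.5 under NRRA, and rose by 0.42 (SE 0.0570, edgeR adjusted p = 4.85e-07).

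Slbp, which encodes the stem-loop binding protein, stood at 84.2 and 93.3 CPM in Veh, 93.6 and 93.8 under RA, 75.4 and 78.9 under NR, and 88.5 and 90.6 under NRRA. It was lower than Veh in NR (-0.20, edgeR adjusted p = 0.0043) and had values of 0.08 under RA and 0.01 under NRRA, neither past the test. The subunits of the cleavage complex divided. In NRRA, Sympk fell by 0.50, Cpsf3 (the nuclease) fell by 0.42 and Cstf2 fell by 0.19 on the log2 scale, while Cpsf2 (0.16) and the U7 snRNP subunit Lsm11 (0.21) rose. Lsm10 (-0.08), Zfp473 (0.17) and Eri1 (-0.03), a nuclease of histone message ends, did not pass the test there. For the factors of general poly(A) addition and histone message decay, 13 of 14 listed names were in the table, and 3 were higher and 8 lower in NRRA vs Veh, with 3 and 6 under RA and 1 and 6 in NR.

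The 18 genes of S phase and replication, the time when clustered histone genes are switched on, were mostly lower in NR and NRRA. In NR vs Veh 2 were higher and 16 lower, in NRRA vs Veh 2 and 11, and in RA vs Veh 4 and 7, with 7 not past the test and with medians of -0.32, -0.18 and -0.09. Ccne2 (cyclin E2) was an exception and rose from 14.3 and 17.2 CPM in Veh to 29.9 and 30.6 in NRRA (0.94, SE 0.0896, edgeR adjusted p = 1.07e-09). Rrm2, a subunit of ribonucleotide reductase, fell from 79.1 and 76.9 CPM in Veh to 42.4 and 42.0 under NR and 57.0 and 59.8 under NRRA. Mcm7, of the replicative helicase, and the transcription factor E2f1 fell in NRRA by 0.45 and 0.36. The interaction passed the test in 14 of the 18, of which 13 were positive, where 6.37% of all tested genes were higher and 6.58% lower. Beside this list, 6 of the 40 tested members were higher in NR vs Veh, Hist1h1c among them, and 3 were lower, Hist1h4i and Hist1h4h among them. Whether S phase has a part in the values of the members was not tested.

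Histones encoded outside the clusters, most of whose messages carry poly(A) tails, could be tested in 12 of 15 cases. The ends of their transcripts, that of H2afx among them, were not sorted here. In NRRA vs Veh 1 was higher and 6 were lower, in RA vs Veh 1 and 5, and in NR vs Veh 1 and 6. H2afy2 (macroH2A2) fell from 60.8 and 58.1 CPM in Veh to 23.1 and 22.3 under RA and 19.6 and 17.3 under NRRA, with 53.1 and 55.9 in NR. Its log2 fold change was -1.69 in NRRA (SE 0.0686, edgeR adjusted p = 2.89e-17). H2afj fell by 0.90 and H2afz, for H2A.Z, fell by 0.38 in NRRA on the log2 scale, and the linker variant H1fx rose by 0.31. H2afx, whose product is phosphorylated at DNA breaks, stood at 47.0 and 39.1 CPM in Veh, 36.5 and 34.5 under RA, 36.2 and 37.7 under NR, and 38.5 and 38.8 under NRRA. It was lower than Veh in RA (-0.28) and NR (-0.22), and its value in NRRA was -0.16, which did not pass the test (edgeR adjusted p = 0.061).

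Of 16 histone chaperones, the proteins that carry histones to and from DNA, 2 were higher and 9 lower in NRRA vs Veh, with 3 and 6 in RA vs Veh and 3 and 9 in NR vs Veh. Chaf1b, a subunit of the replication-coupled assembly factor CAF-1, stood at 47.4 and 44.0 CPM in Veh, 24.2 and 25.7 under RA, 57.0 and 57.9 under NR, and 19.3 and 19.0 under NRRA. It fell by 1.26 on the log2 scale in NRRA (SE 0.0675, edgeR adjusted p = 1.03e-14) and by 0.87 in RA, and rose by 0.33 in NR. Hat1, which acetylates new H4, fell by 0.65 and the FACT subunit Ssrp1 fell by 0.45 under NRRA, while Atrx rose by 0.76. The 3 lists were chosen for their functions and their medians in NRRA vs Veh, -0.18 for S phase, -0.16 for variants and -0.19 for chaperones, stand beside 0.03 for all tested genes.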

How the data were processed

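Counts of reads per gene for 8 RNA-seq libraries were analysed. The authors captured poly(A) RNA, mapped the reads and deposited raw counts as whole numbers, without normalization. The submitters' processing notes name STAR 2.6.1c, featureCounts 1.6.4 and the build mm10, and the paper names another STAR version. The strand setting is not given in the sources used here. Groups came from the treatment labels. The paper's other experiments were not analysed here.

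Counts were filtered by filterByExpr, scaled by TMM and fitted with edgeR 4.0.16 in R 4.3.3 (quasi-likelihood F test, 1 coefficient per group, all 8 libraries), with Benjamini-Hochberg adjustment over 20477 genes in each of 6 contrasts. "Past the test" means an adjusted p under 0.05, and "called" adds a fold of at least 2. The biological coefficient of variation was 3.35% and the SE is the log2 fold change over the square root of F. Of 55421 identifiers, 55240 were in GENCODE M21 (GRCm38), the source of coordinates, stem-loops and read-length windows. Named genes were the 3 testis forms, the 15 members of highest mean CPM, called members with a mean of at least 20 counts, the 11 histone message factors, and up to 4 genes of other lists with the largest change in NRRA. The members and lists were chosen with earlier results of these data known. Alternatives were DESeq2 1.42.0, other scalings, no filter, only the groups compared, a replicate block, removal of a GC and length trend, and leaving out each library. Floors for a count of 0 cover counting error only, while the edgeR intervals include the spread between libraries. Figures used Python 3.11.15 and matplotlib 3.10.9.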

Additional observations from a re-analysis of the deposited data

How the results depend on the processing

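Of 37 differences of single members past the test, 10 were kept under all 16 settings, namely the 5 of Hist1h1c, those of Hist1h4n in NR vs Veh and NRRA vs RA, that of Hist1h2al in RA vs Veh, and those of Hist1h2bc and Hist2h3c2 in NRRA vs NR, and none changed direction. Without the fold threshold, 6 members were lower in RA, 6 higher and 3 lower in NR, 4 higher and 6 lower in NRRA, all against Veh, 5 higher in NRRA than RA and 6 lower in NRRA than NR. DESeq2 called 0 where edgeR called 1 higher in NR, 1 lower in NR and 1 lower in NRRA vs RA. The 1 called lower in NR became 0 with library totals, 0 with only the groups compared and 0 with the GC and length trend removed, which also gave 2 called higher in NR. Without the filter on low counts 2 were called lower in NRRA vs Veh. Leaving out 1 library gave 0 to 1 called higher and 0 to 2 lower in NR, 0 to 1 higher and 0 to 1 lower in NRRA, 0 to 1 lower in RA, 0 to 2 lower in NRRA vs RA and 0 to 1 lower in NRRA vs NR. Members past the test without a fold threshold numbered 3, 2 and 4 against Veh under RA, NR and NRRA with DESeq2, and 2, 8 and 7 with library totals, where edgeR with TMM gave 6, 9 and 10. In NRRA vs RA, DESeq2 gave 2 instead of 6, and with only the groups compared RA vs Veh gave 3. The cause was not tested, and no setting changed how reads were assigned to genes.

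Same-numbered libraries showed no shared deviation, with correlations of -0.0312 to 0.0235 over the 6 pairs of groups. Such values cannot tell whether the libraries were paired by culture or day. With the replicate block, 2 were called lower in NR vs Veh and other counts were within 1.5 times. Hist2h2aa2 in NR vs Veh (0.50, edgeR adjusted p = 0.0291) and Hist1h4i in RA vs Veh (-0.27, edgeR adjusted p = 0.0458) passed the test with this block. With the block and the GC and length trend removed together, 2 were called higher and 0 lower in NR and 2 lower in NRRA vs RA.

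The sum over all members was 0.895 times Veh for RA, 1.2 times for NR and 1.08 times for NRRA with library totals in place of TMM, a scaling that moved the median of all genes in NRRA vs Veh from 0.03 to 0.14. With TMM the ratios over all members were 1.17 in NR and 0.998 in NRRA, and without Hist1h1c 1.02 and 0.896. Without both Hist1h1c and Hist1h2bc, chosen after seeing the data, they were 1.03 and 0.926, also with TMM. Depth limits the 36 members with a mean under 10 counts, and the 3 testis forms could not be tested.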
